A study of Mus musculus with 8 samples.

Results

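Duox1, Prdx2 and Gsta4 are genes that make hydrogen peroxide or deal with it and with its products. They were chosen by name, with earlier results of these data known, and found through the accession of their probes. They are 3 of 46 genes with a named probe, among 60823 probes on the array outside controls. RNA from parotid glands, the salivary glands in front of the ear, was measured on 8 one-colour arrays. There were 4 arrays of db/db mice, males of 16 weeks weighing 40 to 55 g. Db/db mice are homozygous for a mutation of the leptin receptor and model spontaneous type 2 diabetes. The other 4 arrays were of db/m mice of the same age and sex weighing 25 to 30 g. The db/m mice, heterozygous for the receptor mutation, serve as the comparison group. The only agent named for the mice is the chloral hydrate used as anaesthetic before the glands were taken.

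Dual oxidases, of which DUOX1 is one, sit in the plasma membrane of epithelial cells and release hydrogen peroxide to the outside, where lactoperoxidase uses it to make antimicrobial compounds in saliva and airway fluid. Peroxiredoxin 2, the product of Prdx2, reduces hydrogen peroxide in the cytosol and is recycled by thioredoxin. Glutathione S-transferase alpha 4, the product of Gsta4, couples glutathione to 4-hydroxynonenal, an aldehyde formed when lipids are oxidized. The members thus stand for a source, a scavenger and a later step, the removal of a damage product.

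Upstream sequences are shown for Duox1 and Prdx2, the members with a matched window. Both genes were higher in db/db, and their upstream sequences differ in kind. Each is the 250 bases before the start of transcription on the plus strand, from RefSeq (GRCm38.p6), which matched 2 of the 3 members. The windows are chr2:122315422-122315671 and chr8:84969372-84969621, and capitals mark CpG dinucleotides.
Duox1: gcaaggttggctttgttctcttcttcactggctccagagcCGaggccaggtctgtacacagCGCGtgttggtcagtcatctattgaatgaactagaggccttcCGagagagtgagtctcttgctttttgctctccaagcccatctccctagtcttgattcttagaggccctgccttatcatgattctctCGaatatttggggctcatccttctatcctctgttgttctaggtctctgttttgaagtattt
Prdx2: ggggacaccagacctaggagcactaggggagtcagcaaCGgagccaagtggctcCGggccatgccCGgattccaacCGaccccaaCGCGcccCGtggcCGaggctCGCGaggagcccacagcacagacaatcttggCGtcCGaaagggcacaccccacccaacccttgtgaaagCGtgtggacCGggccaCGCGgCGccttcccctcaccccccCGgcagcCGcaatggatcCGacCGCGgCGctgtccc
The Duox1 window held 5 CpG dinucleotides and 47.6% G and C, near the median over 32851 windows of that length (6 CpG and 52.4%). The Prdx2 window held 23 CpG and 69.2% G and C, and 88.0% of windows held no more CpG than that. On either strand, neither window held the antioxidant response element core TGACNNNGC, found in 10.2% of all windows. The same was true of the AP-1 site TGANTCA (6.75% of windows), the STAT site TTCNNNGAA (7.02%), the FOXO site GTAAACA (3.17%) and the GC box GGGCGG (32.7%). The absence of these letters from the windows says nothing about the factors themselves.

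All 3 genes rose in db/db glands. Duox1 was 1.89-fold higher (95% interval 1.39 to 2.57), Prdx2 1.72-fold (1.47 to 2.01) and Gsta4 1.37-fold (1.14 to 1.65). The level used here is log2 of the processed intensity minus the array's 75th percentile, averaged over the 10 spots of the probe, so 0 is the 75th percentile of the array and 1 unit is a doubling. Levels of different probes are not comparable with each other. A gene was called at a limma adjusted p below 0.05 over all 54638 tested probes. Of those probes, 27.8% were called, 15.9% as higher in db/db, and the 3 members are read against that share. Among the 43 tested protein coding genes with a named probe, the members included, 55.8% were called and 41.9% as higher. Nearly all other probes have a single spot per array, while each named probe is a mean of up to 10 spots. Shares over all probes, here and below, therefore set unlike measures side by side. Since the members were chosen with earlier results of these data known, 3 of 3 called is a description.

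Arrays of one group correlated at 0.987 to 0.995 over 54590 probes, and arrays of different groups at 0.972 to 0.982. The share of spots well above background ran from 89.4% to 92.3% on db/db arrays and from 85.3% to 89.3% on db/m arrays. The unscaled 75th percentile was a processed signal of 345 to 379 on the former and 317 to 348 on the latter. A code in the file headers was read as slide row and slide column, which the headers do not spell out. By that reading the db/db arrays filled slide row 2 and the db/m arrays slide row 1, so row and group cannot be told apart. The number of arrays limits the precision, and since the labels do not spell out that every db/m array is a separate animal, p-values rest on the spread between samples, which may be technical. In whole glands, a change in the number of cells of a type and a change in RNA per cell cannot be told apart.

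Duox1, the source of hydrogen peroxide among the members, had the largest mean difference of the 3, and the widest interval. Its log2 levels in db/m replicates 2, 5, 7 and 8 were 0.94, 0.67, 1.38 and 1.49. The db/db replicates 1, 2, 5 and 8 stood at 1.68, 2.24, 2.05 and 2.18. Every db/db array lay above every db/m array, with a gap of 0.19 between the lowest db/db and the highest db/m array, and 16.9% of all tested probes lay that way. The group mean was 2.04 ± 0.25 (SD, n = 4) for db/db against 1.12 ± 0.39 (SD, n = 4) for db/m. The difference was 0.92 ± 0.20 (SE, limma adjusted p = 0.00897), and 6.52% of tested probes differed by at least as much in either direction.

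The db/m values of Duox1 were wide. Their SD was as large as or larger than that of 91.4% of tested probes in db/m, where the median SD was 0.15. Replicates 2 and 5, the lower db/m arrays, lay in slide columns 1 and 2, and replicates 7 and 8 in columns 3 and 4. In db/db the low array, replicate 1, lay in column 1, while replicate 2 in column 2 was the highest. With slide column as a block the difference was 0.92 ± 0.17 (SE, limma adjusted p = 0.0148). Without db/m replicate 5, the lowest array, it was 0.77 ± 0.18.

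The 10 spots of the Duox1 probe gave the same picture. Spot SD within an array ran from 0.03 to 0.13, well under the spread between arrays of either group. At each of the 10 spot positions db/db was higher, by 0.75 to 0.96, and at 9 of the 10 the groups did not overlap. The spots share a probe and an RNA sample, so they are repeat readings and not replicates. The median processed signal of the probe was 1133 to 1754 in db/db and 511 to 955 in db/m, over a local background of 16.8 to 20.5.

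Prdx2, the peroxide scavenger, had the most precise difference. Its log2 levels in db/m replicates 2, 5, 7 and 8 were 3.70, 3.73, 3.72 and 3.71. The db/db replicates 1, 2, 5 and 8 stood at 4.26, 4.48, 4.55 and 4.69. The db/m arrays thus lay within 0.03 of each other, the db/db arrays spread over 0.43, and a gap of 0.53 separated the groups. The group mean was 4.49 ± 0.18 (SD, n = 4) for db/db against 3.71 ± 0.01 (SD, n = 4) for db/m. Prdx2 was thus higher by 0.78 ± 0.10 (SE, limma adjusted p = 0.000623). An adjusted p this low or lower was found for 3.64% of tested probes, and a difference of this size or larger in either direction for 9.05%.

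The db/m SD of Prdx2 was 0.0137, and 0.167% of tested probes had one as small or smaller, while its db/db SD was close to the median over probes of 0.16. Nearly all of those probes have a single spot per array. Their SD thus holds more spot noise than that of Prdx2, a mean of 7 to 10 spots on each array. Spot SD within an array was 0.02 to 0.08, so the 4 db/m arrays differed by no more than single spots of the probe did. The spots of Prdx2 were bright, with median processed signals of 6534 to 9773 in db/db and 4119 to 4591 in db/m, and none was saturated. Db/db was higher at each of the 10 spot positions, by 0.71 to 0.82, with no overlap at any of them. RefSeq lists 2 pseudogenes of Prdx2, and whether its probe separates them was not checked here. The same holds for the Duox1 probe and Duox2, the neighbouring paralogue.

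Gsta4, which removes the aldehyde product, rose least and had the dimmest probe of the 3. Its log2 levels in db/m replicates 2, 5, 7 and 8 were -1.73, -1.40, -1.49 and -1.54. The db/db replicates 1, 2, 5 and 8 stood at -1.07, -1.17, -1.30 and -0.82. The groups did not overlap, but db/db replicate 5 and db/m replicate 5 were only 0.11 apart. The group mean was -1.09 ± 0.20 (SD, n = 4) for db/db against -1.54 ± 0.14 (SD, n = 4) for db/m. Gsta4 was thus higher by 0.45 ± 0.12 (SE, limma adjusted p = 0.0212). A difference of at least this size in either direction was found for 22.3% of tested probes.

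The call of Gsta4 was the least secure. Without db/m replicate 2, the lowest array, the difference was 0.39 ± 0.12 (SE, limma adjusted p = 0.0559). With slide column as a block, the call was only just kept (limma adjusted p = 0.0491). With normexp background correction of the median signal and an offset of 50 the difference was 0.30 ± 0.08 (SE, limma adjusted p = 0.0222). The median processed signal was 155 to 216 in db/db and 96.7 to 123 in db/m, which is 4.83 to 12.7 times the local background of 17.0 to 21.0. Every spot used was well above background, and spot SD within an array was 0.09 to 0.15. Db/db was higher at each of the 10 spot positions, by 0.35 to 0.55, and the groups did not overlap at 7 of them.

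**Figure D1:**
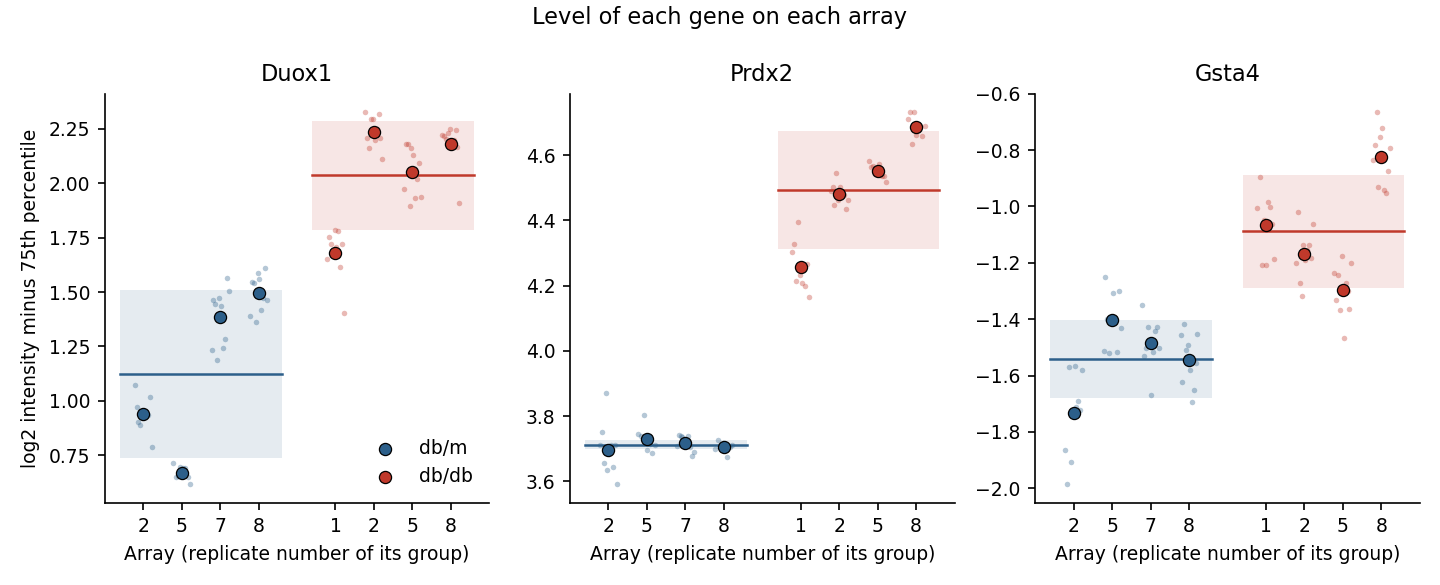
Level of Duox1, Prdx2 and Gsta4 on each array, as log2 intensity minus the array's 75th percentile (vertical axes differ between panels and do not start at 0). Large points are array means, small points the single spots, lines the group means and shaded bands 1 SD (n = 4). All db/db arrays lie above all db/m arrays in each panel, and the db/m arrays of Prdx2 lie between 3.70 and 3.73.

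Set against the other named genes, Duox1 and Prdx2 were among the larger rises and Gsta4 was closer to the middle of the rises. The median difference over the 43 protein coding genes was 0.23, and over all 54638 probes it was 0.03, while the middle value of the 3 members was 0.78. For each member, an exact permutation test over the 8 arrays gave p = 0.0286 (two-sided), the smallest that 4 against 4 can give. That p follows from the lack of overlap, which 16.9% of all tested probes and 46.5% of the named protein coding genes showed in the same direction.

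**Figure D2:**
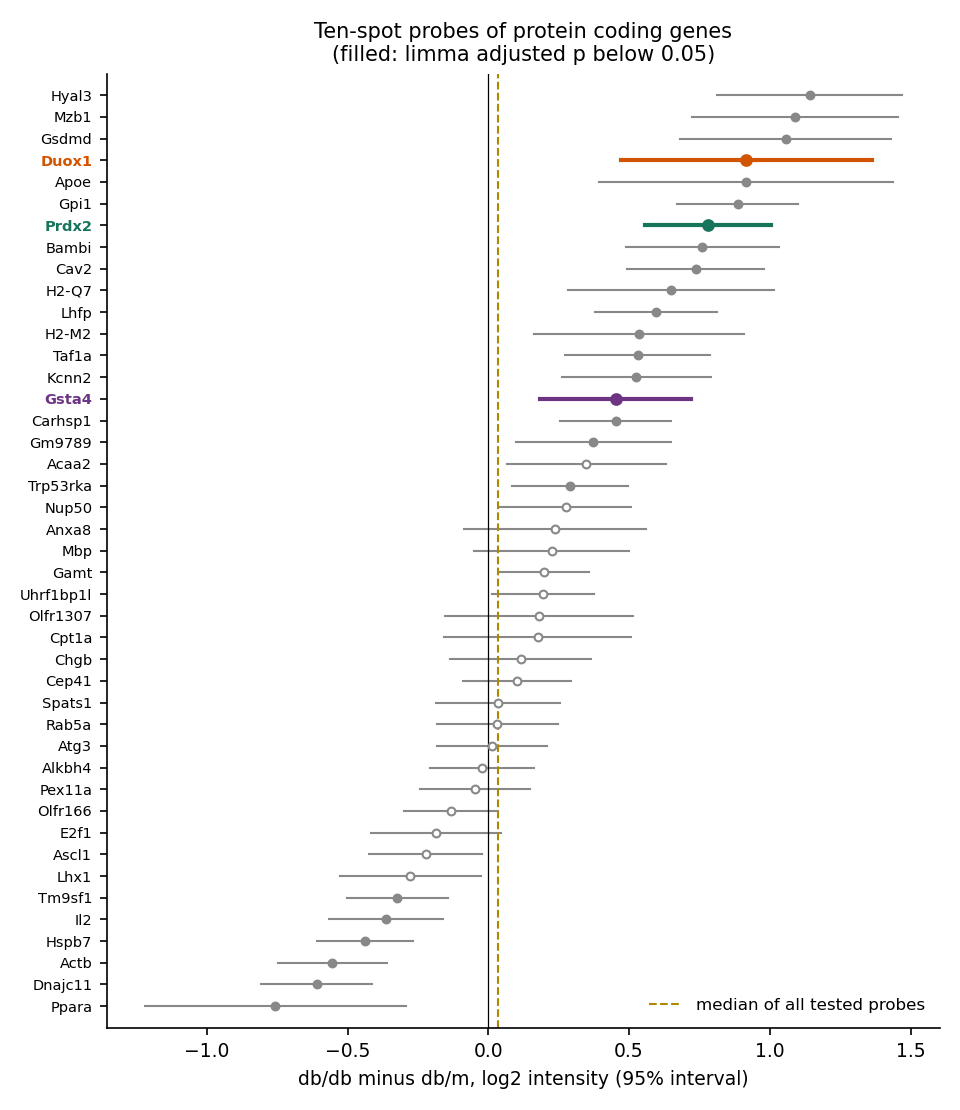
Difference between db/db and db/m (log2 intensity, horizontal axis) for the 43 tested protein coding genes with a ten-spot probe, one per line, with its 95% interval. Filled points have a limma adjusted p below 0.05 and the dashed line is the median over all tested probes (0.03). Duox1 (0.92), Prdx2 (0.78) and Gsta4 (0.45) are drawn in colour.

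The wider list of hydrogen peroxide genes held 114 genes, of which 4 had a named probe among the ten-spot probes, the only ones matched to genes. It covered 33 sources, 25 scavengers, 27 genes of glutathione conjugation and aldehyde removal, 13 genes of the Nrf2 response and NADPH supply, and 16 peroxisome genes. Of the 4 measured, 3 rose, which are the members themselves, and 0 fell. The other was Pex11a, which encodes a membrane protein that divides peroxisomes, organelles that both make and degrade hydrogen peroxide. Its log2 levels in db/m replicates 2, 5, 7 and 8 were 3.85, 3.92, 3.73 and 3.72, and the db/db replicates 1, 2, 5 and 8 stood at 3.63, 3.73, 3.82 and 3.85. These ranges overlapped almost wholly, and the difference was -0.05 ± 0.09 (SE, limma adjusted p = 0.728), with a 95% interval from -0.24 to 0.15. The partners on which the members depend, such as the maturation factor Duoxa1, thioredoxin and lactoperoxidase, were not analysed here.

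Whether the source, the scavenger and the aldehyde-removing gene kept in step was read from the differences between their levels within each array. Duox1 minus Prdx2 was -2.76, -3.06, -2.34 and -2.21 in db/m replicates 2, 5, 7 and 8, and -2.58, -2.24, -2.50 and -2.51 in db/db replicates 1, 2, 5 and 8. The groups overlapped, with the db/db arrays inside the range of the db/m arrays. Between the groups this quantity changed by 0.14 ± 0.21 (SE), with a 95% interval from -0.37 to 0.65, so the 2 rises were not separable at this number of arrays. Without db/m replicate 5, 2, 7 or 8 the value was -0.02, 0.08, 0.22 or 0.26, without db/db replicate 2 it was 0.06, and with normexp 0.08. The interval is wide, and equal rises were not shown.

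Prdx2 minus Gsta4 was also compared. It was 5.43, 5.13, 5.20 and 5.25 in db/m replicates 2, 5, 7 and 8, and 5.32, 5.65, 5.85 and 5.51 in db/db replicates 1, 2, 5 and 8. Of the 4 db/db arrays, 3 lay above all db/m arrays. The change was 0.33 ± 0.13 (SE), with a 95% interval from 0.02 to 0.64, which excludes 0 by little. The interval held 0 when any 1 of 6 arrays was left out (each but db/db replicate 1 and db/m replicate 2), so a larger rise of Prdx2 was not secure. With normexp on the median signal and an offset of 50, the change was 0.50. Duox1 minus Gsta4 changed by 0.46 ± 0.26 (SE), with a 95% interval from -0.17 to 1.1, and 2 of the 4 db/db arrays lay above all db/m arrays. Without db/m replicate 5 the change was 0.27. These intervals are descriptions, since the genes were chosen with earlier results known.

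Within a group the members did not rank the arrays alike. In db/db, replicate 1 was lowest for Duox1 and Prdx2, at 0.36 and 0.24 below their group means on the log2 scale, but not for Gsta4, which was lowest in replicate 5. Replicate 8 was above the mean for all 3, by 0.14, 0.19 and 0.26 for Duox1, Prdx2 and Gsta4. In db/m, replicate 5 was 0.45 below the mean for Duox1 and 0.14 above it for Gsta4, and Prdx2 hardly varied. Since the arrays form separate groups, each of 4, no correlation between the genes is given.

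**Figure D3:**
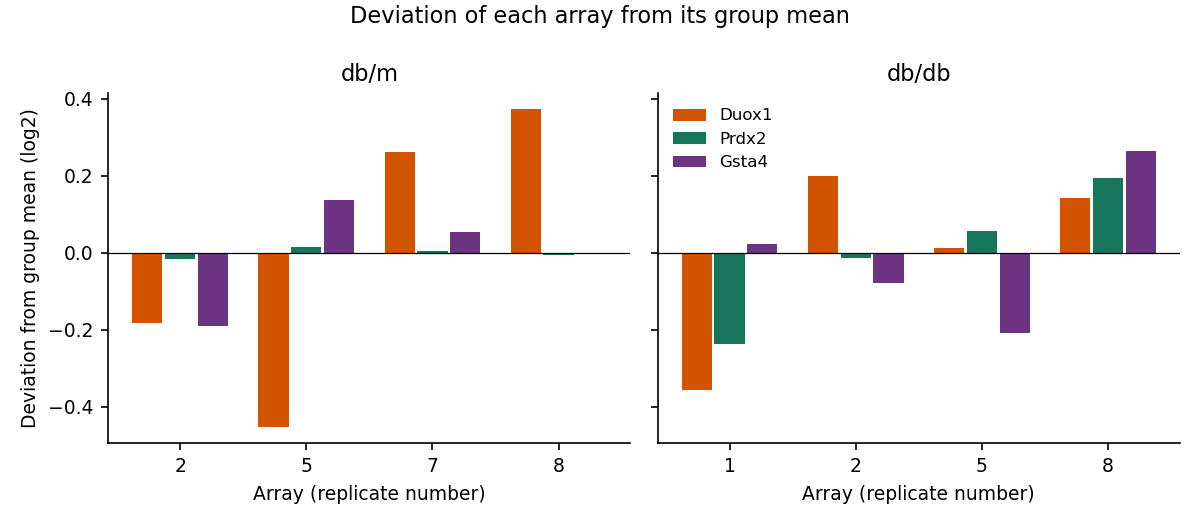
Deviation of each array from its group mean (log2, vertical axis) for the 3 genes, db/m at left and db/db at right. Bars are single arrays, labelled by replicate number, which has no order. Duox1 varies most in db/m (from -0.45 to 0.37), and Prdx2 stays within 0.02 of its db/m mean. The 3 genes share a sign on db/m replicates 2 and 7 and on db/db replicate 8. On db/m replicates 2 and 7, Prdx2 deviates by -0.0153 and 0.0060, less than the SE over its spots (0.0245 and 0.0071).

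Likeness to other named genes was measured as the root mean square difference between profiles over the 8 arrays, each gene centred on its own mean, against the 43 other tested genes with a name. Duox1 was nearest to Prdx2 (0.26), then to the glycolytic isomerase gene Gpi1 (0.33) and to Lhfp (0.36), and Gsta4 came at rank 7 (0.39). Prdx2 was nearest to Gpi1 (0.11), then to the caveolin gene Cav2 (0.13) and to Bambi, which encodes a decoy receptor of the TGF-beta family (0.15). From Prdx2, Gsta4 stood at rank 6 and Duox1 at rank 9. Gsta4 was nearest to Mbp, the myelin basic protein gene (0.14), then to the annexin gene Anxa8 (0.16) and to Lhfp (0.17). From Gsta4, Prdx2 stood at rank 13 and Duox1 at rank 34. The measure favours genes that vary little.

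With each group centred on its own mean, other genes came first. The nearest to Duox1 was then the olfactory receptor gene Olfr1307 (0.17), with Prdx2 at rank 5 and Gsta4 at rank 19. The nearest to Prdx2 was Pex11a (0.08), with Gsta4 at rank 22 and Duox1 at rank 37. For Gsta4 it was again Mbp (0.08), with Prdx2 at rank 11 and Duox1 at rank 39. The log2 levels of Gpi1 in db/m replicates 2, 5, 7 and 8 were 4.74, 4.77, 4.63 and 4.66, and the db/db replicates 1, 2, 5 and 8 stood at 5.53, 5.39, 5.66 and 5.75, a difference of 0.89 ± 0.10 (SE, limma adjusted p = 0.000276). Like Prdx2, it varied little in db/m and was highest in db/db replicate 8. In db/db, however, Gpi1 was lowest in replicate 2 and Prdx2 in replicate 1. The db/m SD of Gpi1 was 0.07, against 0.01 for Prdx2.

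Cell type markers could be read for few cell types. Of 82 markers of 11 cell types, 3 had a named probe among the ten-spot probes, the only ones matched to genes. For 8 types there was none, among them acinar, duct and erythroid cells. The tissue label was thus not checked against its defining markers here. Mzb1, a plasma and B cell gene, was the single measured marker of 9 in its list and was higher in db/db by 1.09 ± 0.16 (SE, limma adjusted p = 0.00145). Its levels were -0.16 to 0.20 in db/m and 0.65 to 1.43 in db/db, with no overlap, in the same direction as the members, and its part in their rise was not tested. In db/db, Mzb1 was highest in replicate 8, as Prdx2 and Gsta4 were, and lowest in replicate 5, as Gsta4 was. Prdx2, however, stood 0.06 above its db/db mean in replicate 5. In replicate 1, where Duox1 and Prdx2 were lowest, Mzb1 stood at 1.18, above its db/db mean of 1.07. Among the db/m arrays, Mzb1 was highest in replicate 2 (0.20), where Gsta4 was lowest, and so was Prdx2, which hardly varied in db/m. Il2, the single measured of 7 T cell markers, was lower by a difference of -0.36 ± 0.09 (SE, limma adjusted p = 0.0163), at a dim level, -4.35 against -3.98. That call was lost when db/db replicate 5 was left out (limma adjusted p = 0.0518), and normexp gave -0.19. Mbp, the single measured of 6 Schwann cell markers, differed by 0.23 ± 0.12 (SE, limma adjusted p = 0.203), and by 0.10 when db/db replicate 8 was left out.

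The 3 members kept their direction and their call under each scaling that was run. With no scaling at all between arrays, chosen after seeing the data, the differences were 1.06 for Duox1, 0.93 for Prdx2 and 0.60 for Gsta4, and the median over all probes was 0.18. With each array's median as the reference they were 0.86, 0.73 and 0.40. Over all probes, the share of calls that were higher in db/db was 57.1% as reported, 46.7% with median scaling, 45.9% with normexp and 80.0% with no scaling. Higher calls were 26.2% of all tested probes with no scaling, against 15.9% as reported.

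**Figure D4:**
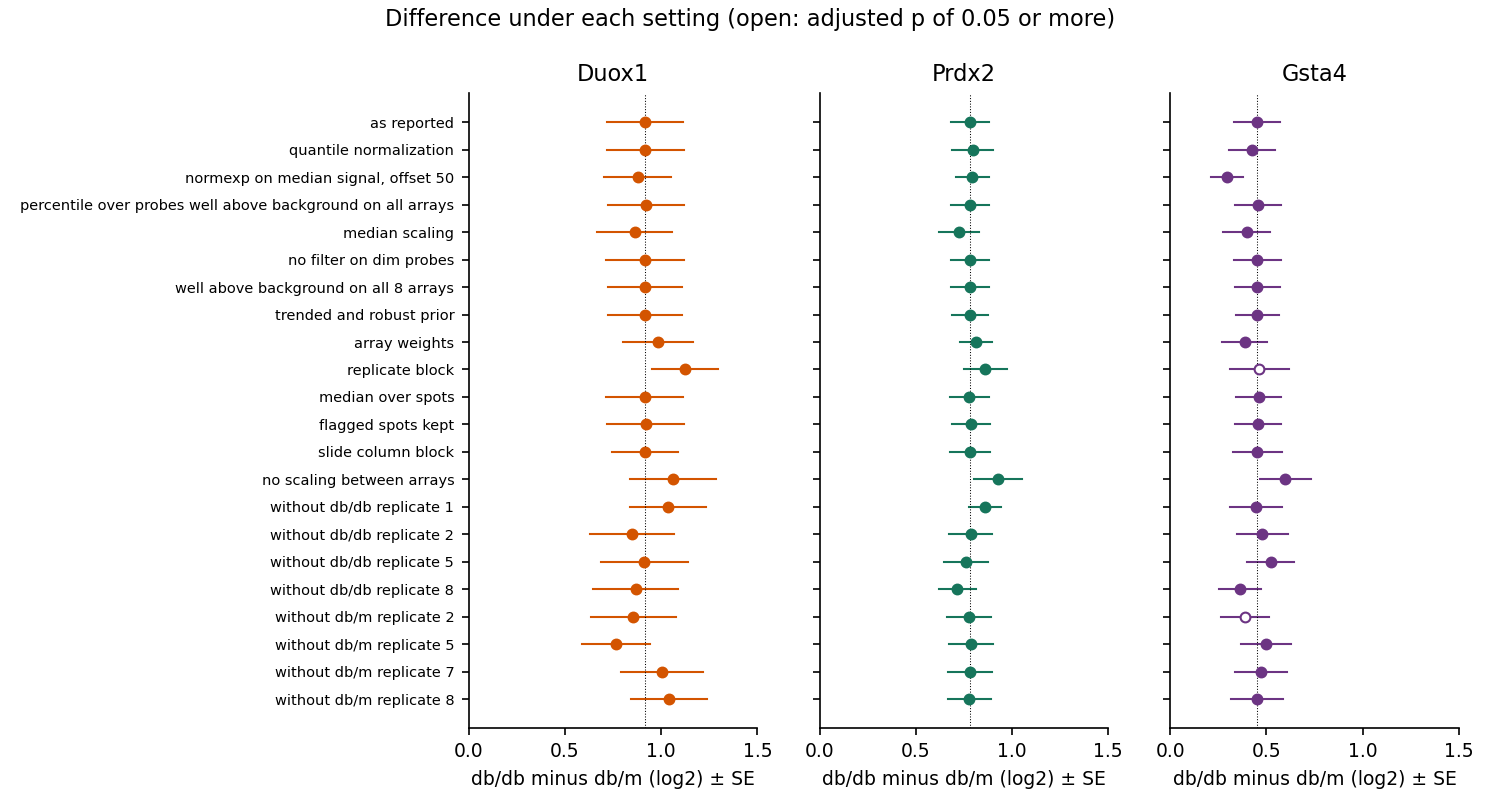
Difference between db/db and db/m (log2, horizontal axes) of Duox1, Prdx2 and Gsta4 under each setting, with bars of 1 SE; open points have a limma adjusted p of 0.05 or more. All values lie above 0, from 0.77 to 1.12 for Duox1, from 0.72 to 0.93 for Prdx2 and from 0.30 to 0.60 for Gsta4, and 2 of the Gsta4 points are open.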

How the data were processed

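RNA was depleted of ribosomal RNA, amplified by random priming and labelled with Cy3, per the labels' protocols. Spot intensities, deposited by the authors, came from Agilent Feature Extraction 11.0.1.1, background-corrected but not scaled between arrays, per the file headers; the array design names build mm9. The authors' deposited log2 table of 60641 probes, whose method is not given in the sources used here, holds no member probe.

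From each array, log2 of the processed intensity minus the 75th percentile of non-control spots was taken, spots flagged as non-uniform or outliers (18 to 55 per array) were left out, and spots of a probe were averaged. A further 132 control-like probes were set aside. Probes well above background on at least 4 of 8 arrays were tested with limma 3.58.1 in R 4.3.3 (lmFit, eBayes, two-sided), with Benjamini-Hochberg adjustment. The fit was tested on simulated data. Accessions matched a RefSeq table (GRCm38.p6) for 46 of 50 ten-spot probes. The only coordinates used are those of RefSeq's promoter windows. Groups came from titles. The members, the lists and the naming rule (the members, other measured list and marker genes, and the nearest profiles) were chosen with earlier results of these data known. Intervals between genes use the pooled spread of the within-array differences.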

Additional observations from a re-analysis of the deposited data

Results flagged for a closer look

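A search for single arrays far from the rest of their group covered 32 groups of 4, which are both groups of the 13 genes named with a profile or a level above and of the 3 differences between members. It found 2 in the 32 groups, near the share of about 1 in 20 groups that chance gives. Both were in db/db replicate 8 and in genes near Gsta4 in profile. That nearness was measured on these same arrays, so the array shared with Gsta4 is not a separate finding. Mbp was at -1.23 on that array, against the other db/db arrays between -1.76 and -1.69. Anxa8 was at -0.18, against -0.73 to -0.69. Gsta4 was also highest in that array, at -0.82.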

How the results depend on the processing

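Over 21 refits each, Duox1 and Prdx2 stayed called, with limma adjusted p of at most 0.0272 and 0.0126. Leaving out each array gave differences of 0.77 to 1.04 for Duox1, 0.72 to 0.86 for Prdx2 and 0.36 to 0.52 for Gsta4, and 10544 to 16164 called probes. Gsta4 was called in 19 of 21 refits, not without db/m replicate 2 (0.39) and not with the replicate block (0.46, limma adjusted p = 0.103). That block on replicate numbers gave 8518 called probes against 15176 and 2 of the 3 members called. The 2 arrays whose numbers occur in 1 group alone (db/db 1, db/m 7) carry no weight in it. Deviations of same-numbered arrays correlated at -0.02, -0.13 and -0.17, and for 0 of 3 numbers was the partner the closest array, so no pairing was seen. Il2 lost its call with the trended and robust prior, with the replicate block, without scaling and without db/db replicate 5 (limma adjusted p of 0.103, 0.0719, 0.137 and 0.0518). The Pex11a difference, not called, was 0.10 without scaling, which by its construction shifts every probe by the same amount. Normexp was run on the median signal in place of the mean signal named beforehand. Gsta4, at 4.83 to 12.7 times its local background, was the dimmest of the 3.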
